A study of Arabidopsis thaliana with 32 samples.

Results

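The genes described here are those of the main route of auxin synthesis in Arabidopsis thaliana, TAA1 and YUC1 to YUC9. They were taken by their gene identifiers, and are 10 of the 33602 genes in the count table. The set was chosen with earlier results of these data known. TAA1 is the aminotransferase that turns tryptophan into indole-3-pyruvate, and the YUCCA (YUC) proteins are flavin monooxygenases that turn indole-3-pyruvate into the auxin indole-3-acetic acid. The YUC step is held to limit the rate of the route. Genetic work has tied YUC1, YUC2, YUC4 and YUC6 mainly to aerial organs and YUC3, YUC5, YUC7, YUC8 and YUC9 mainly to roots, and YUC2, YUC5, YUC8 and YUC9 to growth under a low ratio of red to far-red light (R/FR). Low R/FR is the light signal of neighbouring plants. It inactivates the photoreceptor phyB and releases PHYTOCHROME INTERACTING FACTORS (PIFs), transcription factors that bind G-box and PBE-box sequences.

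RNA was sequenced from whole wild-type Col-0 seedlings, about 25 seedlings per library. All seedlings were first grown for 3 days in constant white light of about 70 µE at 21 °C. They were then left there (21WL), or moved to 21 °C with added far-red light at R/FR = 0.6 (21FR), to 30 °C in white light (30WL), or to 30 °C with the same far-red light (30FR). Samples were taken after 1, 3, 6 and 24 h, giving 16 groups of 2 biological replicates (32 libraries). No mutant or transgenic seedling was sequenced for these libraries. Whole seedlings mix all organs, so that a change in the share of a cell type and a change in RNA per cell cannot be told apart.

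The 32 libraries held 7606788 to 28170966 counts (median 18502913). Levels are cpm, counts scaled to a common library size of 1e6 after TMM scaling, given as the mean ± SD of n = 2 libraries unless single libraries are named. A call in a comparison required a log2 fold change (log2FC) above 1 or below −1 together with a false discovery rate (FDR) below 0.05, taken over the 20145 genes kept, and tests are edgeR's quasi-likelihood test unless another is named. Counts of genes at an unadjusted p under 0.05 are given without the share of all genes at that level, and are no result about the set. Pairs of libraries that do not overlap are likewise described without that share. With 2 libraries in a group, pairs can fail to overlap without any difference. Of the 10 genes, 9 passed the filter of more than 1 cpm in at least 2 libraries, and YUC1 did not. The root markers PIN2, COBL9 and WER summed to 64.3 to 96.2 cpm, and the green tissue markers LHCB1.3, RBCS1A and LHCA1 to 18560 to 47460 cpm, with all 6 detected in every library. The green sum had medians of 33280 cpm in 30WL, 32680 cpm in 30FR and 36960 cpm in 21FR, against 40780 cpm in 21WL. Its values in the warm libraries lay below those of 21WL at 6 and 24 h, and overlapped them at 1 h. The markers differed: at 3 h RBCS1A had lower means in 30WL and 30FR than in 21WL, and LHCB1.3 lay on both sides. LHCA1 then had higher means, 7148 and 7332 cpm against 4058 cpm. The part of the green sum in the results on YUC genes was not tested. The seed markers CRU3 and 2S1 together reached 6.96 cpm in replicate 2 of 30WL at 24 h, against 0.312 cpm in replicate 1. In all other libraries they stayed at or below 2.661 cpm.

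YUC8 and YUC9 were the genes of the set that rose in low R/FR, so the 250 bases before their annotated starts are shown first, beside those of YUC2, which rose in 1 comparison. The sequences and positions are those of RefSeq for TAIR10.1. The windows were searched on both strands for the G-box (CACGTG) and the PBE-box (CACATG, or CATGTG on the other strand), and matches are in capitals.
YUC8 (chr4:14192319-14192568, plus strand): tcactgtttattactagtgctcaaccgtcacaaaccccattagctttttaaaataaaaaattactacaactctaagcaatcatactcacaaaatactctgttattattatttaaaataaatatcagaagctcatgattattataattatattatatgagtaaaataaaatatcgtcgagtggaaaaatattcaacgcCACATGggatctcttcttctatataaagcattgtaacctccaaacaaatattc
YUC9 (chr1:1104243-1104492, plus strand): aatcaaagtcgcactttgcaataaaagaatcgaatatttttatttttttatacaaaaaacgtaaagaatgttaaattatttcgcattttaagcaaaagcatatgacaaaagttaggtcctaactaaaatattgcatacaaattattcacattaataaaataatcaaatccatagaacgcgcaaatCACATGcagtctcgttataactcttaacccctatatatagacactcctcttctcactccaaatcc
YUC2 (chr4:7724071-7724320, minus strand): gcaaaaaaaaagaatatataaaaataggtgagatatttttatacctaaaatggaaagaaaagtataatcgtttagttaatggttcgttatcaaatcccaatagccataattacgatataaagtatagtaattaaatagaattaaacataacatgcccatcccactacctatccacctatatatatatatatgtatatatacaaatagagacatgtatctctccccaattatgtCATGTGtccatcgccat
Each of these windows held 1 PBE-box, with its first base at −53 in YUC8, −65 in YUC9 and −17 in YUC2. The other 7 genes held none there. A PBE-box was found in the same window of 11.1% of 27443 protein-coding genes. No G-box lay within 250 bases of any of the 10 starts, against 6.49% of all genes.

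In the 1000 bases before the start, YUC8 alone of the 10 held G-boxes, at −484 and −448, and 14.8% of all genes held at least 1. Both are shown here with 20 bases on each side, the G-box in capitals.
YUC8, G-box at −484 (chr4:14192065-14192110, plus strand): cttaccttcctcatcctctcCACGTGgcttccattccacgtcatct
YUC8, G-box at −448 (chr4:14192101-14192146, plus strand): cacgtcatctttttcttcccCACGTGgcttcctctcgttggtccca
The longer window added 1 PBE-box in YUC6 (−478) and 1 in YUC7 (−898), against 37.7% of all genes with at least 1. YUC6 and YUC7 were not called against 21WL. A match is a description of the letters and not a measured binding site, and a window without a match says nothing about the binding of a factor.

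**Figure D1:**
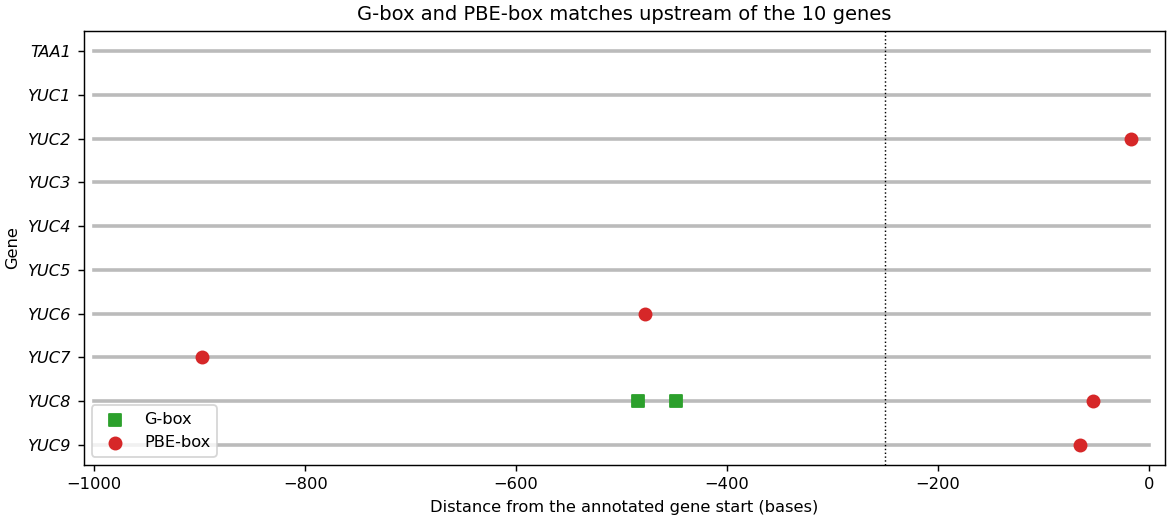
Positions of G-box (squares) and PBE-box (circles) matches in the 1000 bases before the annotated start of the 10 genes, with the distance from the start in bases on the horizontal axis and a dotted line at 250 bases. Matches within 250 bases stand in YUC2, YUC8 and YUC9, and the 2 G-boxes stand in YUC8.

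TAA1 was the most abundant of the 10 genes per length of transcript. In the 8 libraries of 21WL it was at 14.6 ± 0.711 cpm per kb of exon (mean ± SD over the 4 time points). YUC3 followed at 3.39 ± 0.899, YUC6 at 2.47 ± 0.507, YUC8 at 2.43 ± 0.524 and YUC2 at 2.15 ± 0.394 cpm per kb. These 4 lay within their spread of each other. A lower tier held YUC9 at 0.985 ± 0.172, YUC5 at 0.898 ± 0.276 and YUC4 at 0.784 ± 0.318 cpm per kb, which likewise lay within their spread. YUC7 at 0.408 ± 0.132 and YUC1 at 0.325 ± 0.149 cpm per kb were the lowest, and YUC7 lay within the spread of YUC1 and of YUC4.

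**Figure D2:**
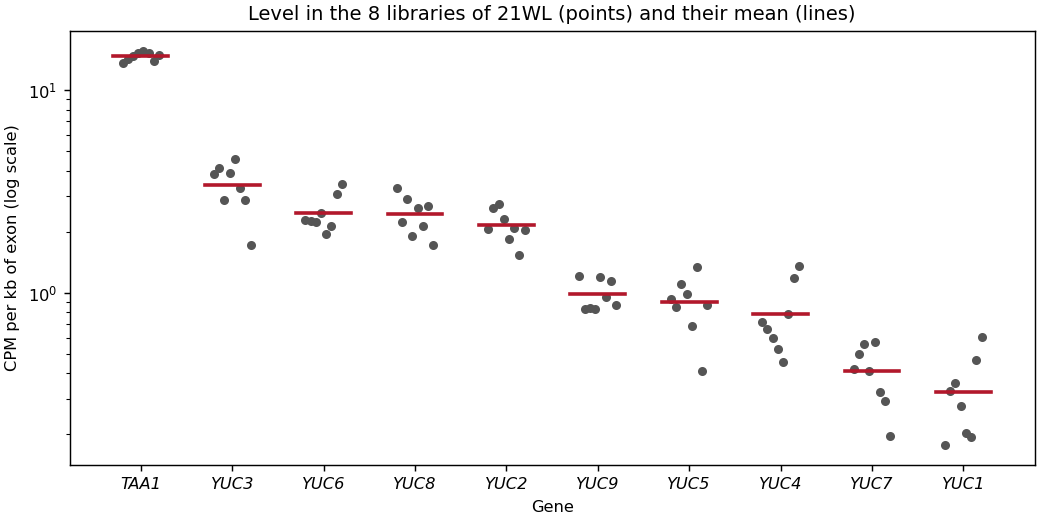
Level of each gene in 21WL in cpm per kb of exon on a log scale, 1 point per library (8 libraries over 4 time points) with the mean as a line. TAA1 stands above all YUC genes, and YUC7 and YUC1 stand lowest.

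The first step of the route was not called in any condition. TAA1 (AT1G70560, chr1:26604855-26607652, 5 exons) was between 16.6 and 25.6 cpm in all 32 libraries, and its group means ranged from 18.8 ± 0.151 cpm in 21FR at 3 h to 23.8 ± 0.374 cpm in 21WL at 6 h, a ratio of 1.27. It was called in none of its 28 comparisons between 2 groups or for the interaction, and 3 of these had an unadjusted p under 0.05. The largest of its differences from 21WL was a log2FC of −0.31 (SE 0.119, FDR 0.499) in 21FR at 3 h. Over the mean of the 4 time points, a comparison added after the data were seen, TAA1 had a log2FC of −0.15 in 30FR against 21WL (FDR 0.0356), under the fold required for a call. The level of TAA1 in 30FR at 3 h rested on libraries of 22.2 and 16.6 cpm, the widest pair of the gene.

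YUC9 (AT1G04180, chr1:1104493-1106241, plus strand, 2 exons) rose in low R/FR at both temperatures, with its highest group means at 1 h. At 1 h, replicates 1 and 2 held 1.998 and 1.38 cpm in 21WL, 8.54 and 6.90 cpm in 21FR, 2.22 and 3.84 cpm in 30WL, and 9.14 and 7.64 cpm in 30FR. Both far-red groups thus lay above both white light groups with no overlap. At 3 h the pairs were 1.38 and 1.37 cpm in 21WL, 3.64 and 3.54 cpm in 21FR, 2.41 and 2.03 cpm in 30WL, and 5.94 and 5.44 cpm in 30FR. The order 21WL, 30WL, 21FR, 30FR held without overlap. At 6 h they were 1.98 and 1.57 cpm in 21WL, 5.01 and 4.33 cpm in 21FR, 1.73 and 1.77 cpm in 30WL, and 5.04 and 3.70 cpm in 30FR, so that the far-red groups overlapped each other but not the white light groups. At 24 h the far-red groups had come down to 2.13 and 2.65 cpm in 21FR, with 30FR at 3.51 and 2.26 cpm, against 1.89 and 1.42 cpm in 21WL and 1.87 and 1.79 cpm in 30WL.

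YUC8 (AT4G28720, chr4:14192569-14194302, plus strand, 1 exon) also rose in low R/FR at both temperatures, with its highest group means at 6 h in 21FR and 3 h in 30FR. At 1 h, replicates 1 and 2 held 5.67 and 3.86 cpm in 21WL, 10.5 and 9.40 cpm in 21FR, 6.04 and 6.93 cpm in 30WL, and 12.6 and 14.5 cpm in 30FR. At 3 h they held 5.02 and 3.31 cpm in 21WL, 10.8 and 10.3 cpm in 21FR, 4.39 and 4.83 cpm in 30WL, and 20.4 and 21.6 cpm in 30FR. At both times the 30FR pair lay above the 21FR pair and both lay above the white light pairs. At 6 h 21FR held 16.2 and 12.2 cpm and 30FR 19.5 and 10.01 cpm, against 4.54 and 3.71 cpm in 21WL and 5.07 and 3.74 cpm in 30WL. The far-red groups overlapped each other at 6 h, and the 30FR pair was the widest of the gene. At 24 h the pairs were 4.66 and 2.98 cpm in 21WL, 5.04 and 6.30 cpm in 21FR, 5.82 and 4.804 cpm in 30WL, and 6.49 and 5.87 cpm in 30FR.

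**Figure D3:**
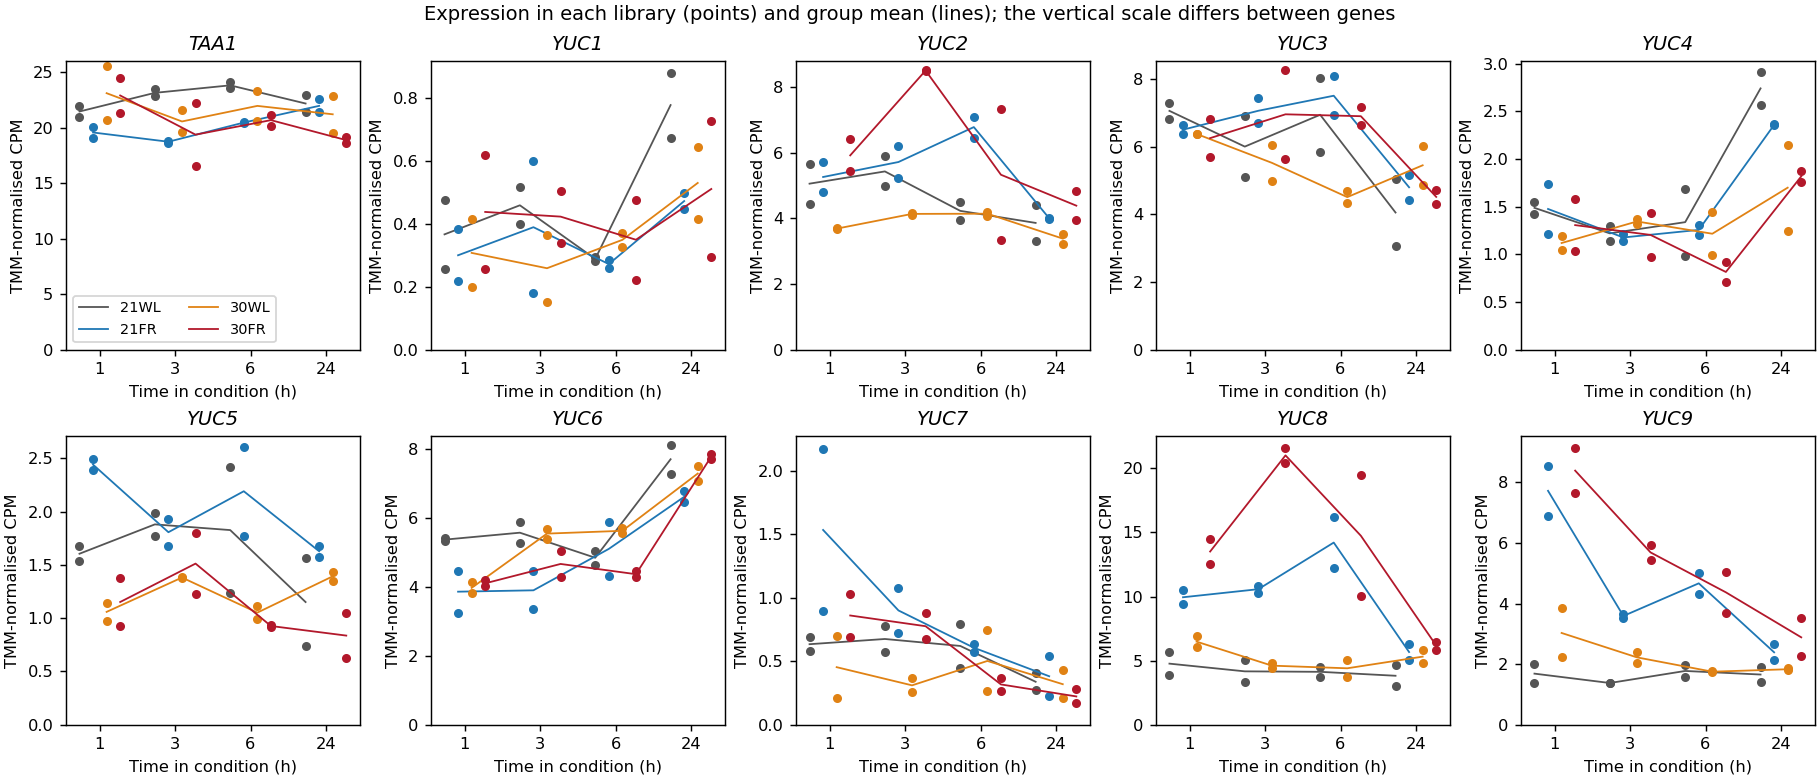
Level of each of the 10 genes in cpm (vertical axis, scale differs between genes) against time in the condition in h (horizontal axis, evenly spaced), 1 point per library and lines through the group means, coloured by condition. YUC8 and YUC9 stand highest in 21FR and 30FR at 1, 3 and 6 h, while TAA1 stays between 16.6 and 25.6 cpm.

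The comparison of 21FR with 21WL asked which of the genes respond to low R/FR at 21 °C. YUC9 was called higher at 1, 3 and 6 h and YUC8 at 3 and 6 h, and none of the 9 tested genes was called lower, where 0.00993%, 0.0298%, 0.0397% and 0.179% of all tested genes were at 1, 3, 6 and 24 h. The calls were 1 of 9 genes at 1 h where 0.218% of all tested genes were called higher, 2 of 9 at 3 h (0.174%) and 2 of 9 at 6 h (0.328%). At 24 h, where 0.149% of all genes were called higher, none of the 9 was called by edgeR's quasi-likelihood test and none had an unadjusted p under 0.05. YUC9 was 4.60-fold higher at 1 h (log2FC 2.20, SE 0.264, FDR 4.9e-05), 2.60-fold at 3 h (FDR 0.0266) and 2.61-fold at 6 h (FDR 0.00741). YUC8 was 2.59-fold higher at 3 h (log2FC 1.37, SE 0.281, FDR 0.0254) and 3.42-fold at 6 h (log2FC 1.77, SE 0.266, FDR 0.000732). At 1 h YUC8 had a log2FC of 1.07 (SE 0.275) and an FDR of 0.156, and edgeR's likelihood ratio test called it. The median log2FC of the 9 genes was 0.05 at 1 h, 0.09 at 3 h, 0.11 at 6 h and 0.23 at 24 h, and that of all tested genes was within 0.01 of 0 at each time.

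Some of these calls ended when 1 library was left out, which leaves 1 library in its group. Leaving out any 1 of the 4 libraries of 21WL and 21FR at 3 h ended the call of YUC9 there. Its log2FC stayed at 1.34 to 1.39, so no single library carried this difference. That of YUC8 at 3 h ended without replicate 2 of 21WL (log2FC 1.07) and without replicate 1 or 2 of 21FR (1.32 and 1.40). The call of YUC9 at 6 h ended without replicate 1 (1.53) or 2 (1.23) of 21WL and without replicate 1 of 21FR (1.25). Those of YUC9 at 1 h and of YUC8 at 6 h held without any 1 library. With each time point fitted alone, the calls of YUC9 at 1 h and YUC8 at 3 h remained and the other 3 did not.

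Warmth alone gave no call at any time point. In 30WL against 21WL, where 2.28% of all tested genes were called higher at 1 h, 1.76% at 3 h, 1.08% at 6 h and 0.953% at 24 h, none of the 9 genes was called in either direction by edgeR's quasi-likelihood test. The shares of all tested genes called lower were 1.72%, 1.33%, 0.625% and 0.814%. edgeR's likelihood ratio test and DESeq2 called none either. The 30WL libraries of 6 h held 7606788 and 14924687 counts, with the highest shares of multiply aligned entries of all libraries (50.4 and 38.8%). An unadjusted p under 0.05 was found for 2 of the 9 genes at 1 h and for 1 each at 3, 6 and 24 h. The nearest to a call was YUC9 at 1 h, 1.84-fold higher with a log2FC of 0.88 (SE 0.277) and an FDR of 0.0252, short of the fold required. Its 30WL libraries differed, at 2.22 and 3.84 cpm. Without replicate 1 of 30WL the log2FC was 1.20, without replicate 1 of 21WL it was 1.16, and YUC9 was then called. Without replicate 2 of 30WL it was 0.41 (FDR 0.443) and without replicate 2 of 21WL 0.63 (FDR 0.245). Over the mean of the 4 time points YUC9 had a log2FC of 0.42 in 30WL against 21WL (SE 0.152, FDR 0.0274), under the fold required. YUC8 in 30WL had log2FC of 0.46, 0.18, 0.05 and 0.46 (SE 0.28 to 0.31) at 1, 3, 6 and 24 h, with FDR from 0.255 to 0.947.

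With both signals, in 30FR against 21WL, YUC8 and YUC9 were called higher at 1, 3 and 6 h. This was 2 of 9 genes at each of these times, where 3.52%, 2.08% and 2.05% of all tested genes were called higher. YUC8 was 2.86-fold higher at 1 h (FDR 0.000242), 5.15-fold at 3 h (log2FC 2.36, SE 0.275, FDR 4.65e-06) and 3.54-fold at 6 h (FDR 6.63e-05). YUC9 was 4.99-fold higher at 1 h (log2FC 2.32, SE 0.262, FDR 1.39e-06), 4.11-fold at 3 h (FDR 2.35e-05) and 2.44-fold at 6 h (FDR 0.00125). All 6 calls held without any 1 library. At 24 h, with 1.72% of all genes called higher, none of the 9 was called by edgeR's quasi-likelihood test and 3 had an unadjusted p under 0.05. YUC9 then had a log2FC of 0.81 (FDR 0.0411) and YUC8 of 0.69 (FDR 0.0872). At this time 1 library decided the fold: without replicate 1 of 21WL, YUC9 had 1.02 and YUC8 1.05, and YUC9 had 1.08 without replicate 2 of 30FR, all 3 past the thresholds. YUC9 fell short with 0.45 (FDR 0.371) without replicate 1 of 30FR and 0.62 (FDR 0.297) without replicate 2 of 21WL, and YUC8 had 0.41 (FDR 0.515) without replicate 2 of 21WL. The 3 single comparisons share the 21WL libraries of their time point.

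**Figure D4:**
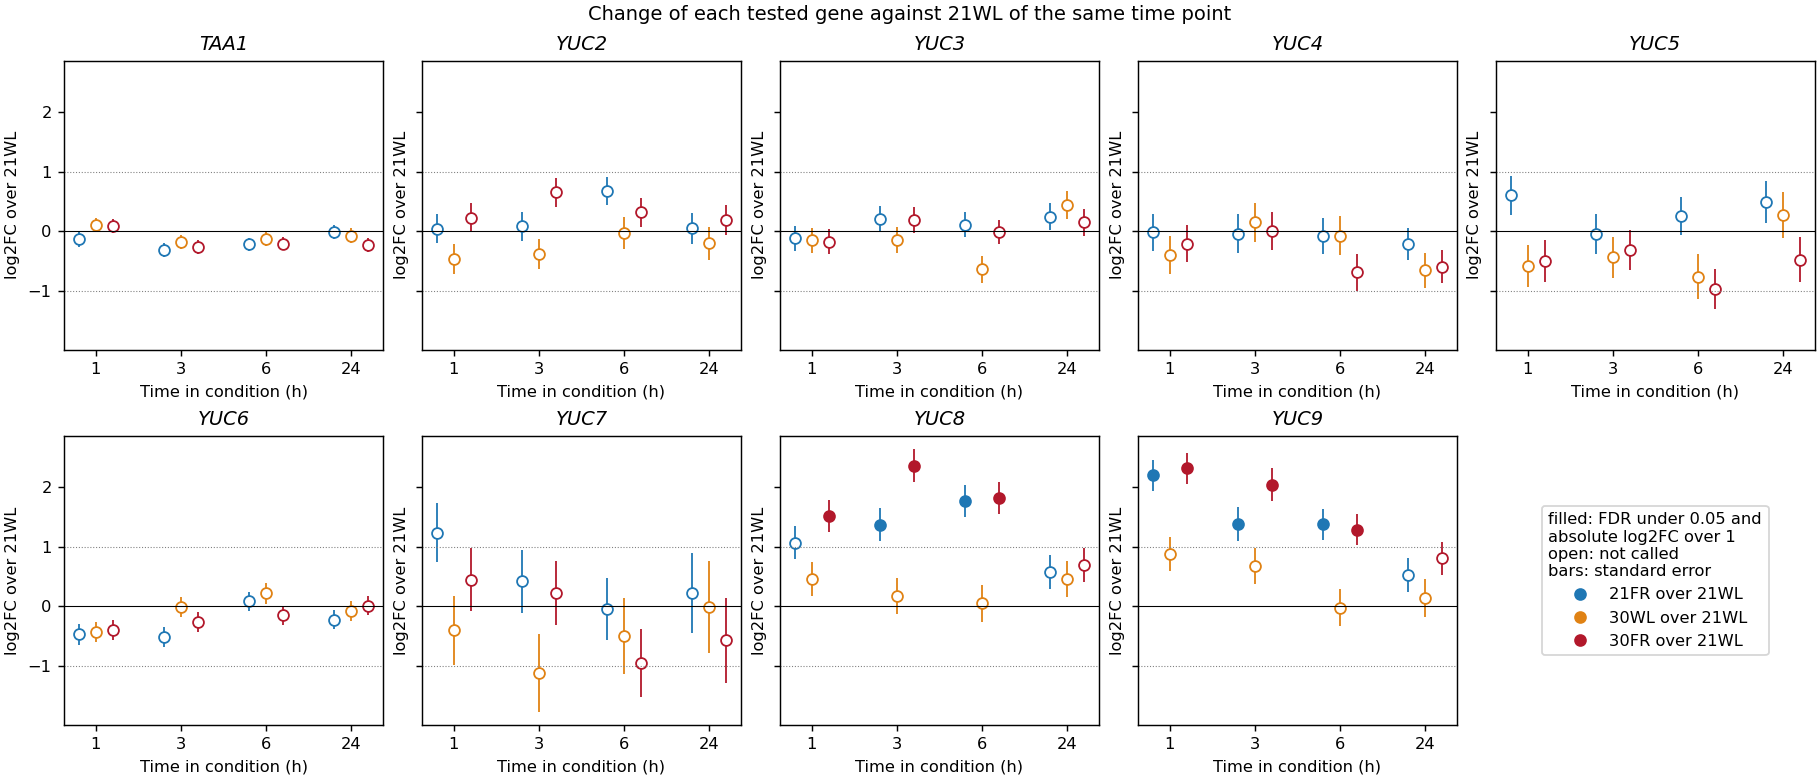
log2FC against 21WL of the same time point (vertical axis) by time in h for the 9 tested genes, with SE as bars and filled symbols for calls. The filled symbols are those of YUC8 and YUC9 in 21FR and 30FR at 1, 3 and 6 h, apart from YUC8 in 21FR at 1 h.

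Adding low R/FR to warmth, 30FR against 30WL, gave calls of YUC9 at 1, 3 and 6 h, of YUC8 at 3 and 6 h, and of YUC2 at 3 h. These were 1, 3 and 2 of the 9 genes, where 0.323%, 0.432% and 0.164% of all tested genes were called higher. YUC8 was 4.54-fold higher at 3 h (log2FC 2.18, SE 0.266, FDR 5.96e-05) and YUC9 2.71-fold at 1 h (log2FC 1.44, SE 0.243, FDR 0.00205). At 24 h, where 0.114% of all genes were called higher, none of the 9 was called and 1 had an unadjusted p under 0.05. YUC8 at 1 h had a log2FC of 1.06 and an FDR of 0.0645, and it was called by DESeq2, by the likelihood ratio test, without the expression filter, with the replicate number as a block and with the time point fitted alone. Of the 6 calls, that of YUC8 at 3 h held without any 1 library. Fitted alone, YUC9 at 1 and 6 h and YUC8 at 6 h were not called. The call of YUC9 at 1 h ended without replicate 1 of 30WL (1.12), that at 3 h without replicate 2 of 30WL (1.23) or replicate 1 of 30FR (1.295), and that at 6 h without replicate 1 (1.295) or 2 (1.33) of 30WL or replicate 1 of 30FR (1.08). That of YUC8 at 6 h ended without replicate 2 of 30WL (1.53) or replicate 1 of 30FR (1.22).

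YUC8 and YUC9 were also compared between the far-red conditions, 30FR against 21FR. At 3 h YUC8 was 1.99-fold higher in 30FR (log2FC 0.99, SE 0.244, FDR 0.00449) and YUC9 1.58-fold (log2FC 0.66, SE 0.238, FDR 0.041), both at an FDR under 0.05 and below the fold required. Without replicate 1 of 21FR or of 30FR the log2FC of YUC8 was 1.03 or 1.04 and it was called. At 1 h the log2FC were 0.45 (SE 0.254) for YUC8 and 0.12 (SE 0.228) for YUC9, at 6 h 0.05 (SE 0.240) and −0.10 (SE 0.232), and at 24 h 0.12 (SE 0.263) and 0.27 (SE 0.252). Over the mean of the 4 time points YUC8 was 1.32-fold higher in 30FR (log2FC 0.40, SE 0.125, FDR 0.0102), and YUC9 had a log2FC of 0.24 (FDR 0.0979).

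The interaction tested whether the response to low R/FR differed between 30 and 21 °C. None of the 9 genes was called at any time by edgeR's quasi-likelihood test, its likelihood ratio test or DESeq2, and of all 20145 genes, 0 were called at 1, 3 and 6 h and 2 (0.00993%) at 24 h. An unadjusted p under 0.05 was found for 2, 2, 0 and 1 of the 9 genes. At 3 h YUC2 had the largest interaction of the time point, 0.95 (SE 0.342, FDR 0.726), and YUC8 had 0.81 (SE 0.389, FDR 0.785). At 1 h YUC9 had −0.76 (SE 0.360, FDR 1).

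YUC9 fell again in both far-red conditions and YUC8 in 30FR. From 1 to 24 h, YUC9 fell in 21FR by 1.68 on the log2 scale (SE 0.247, FDR 0.000176) and in 30FR by 1.53 (SE 0.236, FDR 3.23e-05), and YUC8 fell in 30FR by 1.13 (SE 0.253, FDR 0.00128). In 30FR the sum of the 3 green tissue markers went from 40170 and 35350 cpm at 1 h to 19500 and 18560 cpm at 24 h. In 21FR it was 36570 and 36430 cpm at 1 h and 34950 and 35230 cpm at 24 h. The green sum was thus lower at 24 h in both libraries of 30FR by more than in those of 21FR, and its part in the fall of YUC8 and YUC9 was not tested. Together with YUC7, 2 of 9 genes were called lower at 24 h in 21FR and 3 of 9 in 30FR, where 0.988% and 4.57% of all genes were. YUC7 passed the filter only through far-red libraries of 1 and 3 h, so its calls in these counts are not independent of the filter. None of the 9 was called lower by edgeR's quasi-likelihood test in 21WL or 30WL, where 0.283% and 2.76% of all genes were called lower, and 3 and 2 of the 9 had an unadjusted p under 0.05. YUC8 in 21FR had a log2FC of −0.80 (FDR 0.0566). In 30WL YUC9 had −0.75 (FDR 0.0540), with −1.07 and a call without replicate 1 of 30WL at 1 h and −0.28 (FDR 0.582) without replicate 2. The calls of YUC8 and YUC9 held without any 1 library.

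Whether the response itself was smaller at 24 h than at 1 h was tested after the data were seen, as the difference between the log2FC against 21WL at the 2 times. For YUC9 it was −1.51 in 30FR (SE 0.386, FDR 0.0213) and −1.67 in 21FR (SE 0.393, FDR 0.175), and the first was called, 1 of 9 genes where 1.29% of all genes were called lower. In 21FR 0.0546% of all genes were called lower and none of the 9. For YUC8 the values were −0.82 in 30FR (FDR 0.222) and −0.49 in 21FR (FDR 1). The call of YUC9 ended without replicate 2 of 21WL (−1.26) or replicate 1 of 30FR (−1.38) at 1 h, and without replicate 1 of 21WL (−1.297) or replicate 2 of 30FR (−1.24) at 24 h. Averaged over the 4 time points, also chosen after the data were seen, YUC8 and YUC9 were called higher in 21FR (2.29-fold and 2.59-fold), in 30FR (3.03-fold and 3.06-fold) and in 30FR over 30WL (2.48-fold and 2.29-fold). These were 2 of 9 genes each, where 0.308%, 2.08% and 0.343% of all genes were called higher, and all 6 calls held without any 1 of the 32 libraries.

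YUC2 (AT4G13260, chr4:7721487-7724070, minus strand, 3 exons), tied to aerial organs, was the third gene called higher. At 3 h its replicates were at 8.52 and 8.47 cpm in 30FR, 6.21 and 5.21 cpm in 21FR, 5.88 and 4.97 cpm in 21WL and 4.09 and 4.17 cpm in 30WL. The 30FR pair lay above all others and the 30WL pair below all others. YUC2 was called higher in 30FR than in 30WL (2.05-fold, log2FC 1.04, SE 0.24, FDR 0.0242). This call ended without replicate 1 (1.03) or 2 (1.05) of 30WL or replicate 1 of 30FR (1.03), though the log2FC hardly moved. Against 21WL it was 1.57-fold higher (log2FC 0.66, FDR 0.049). At 6 h the 30FR libraries were far apart at 7.31 and 3.34 cpm, against 7.10 and 6.46 cpm in 21FR. The log2FC of 30FR over 21FR was −0.36 at this time (FDR 0.297), and it was −1.02 with a call without replicate 1 of 30FR and 0.11 without replicate 2. In the same pair YUC8 held 19.5 and 10.01 cpm, whereas TAA1 held 20.2 and 21.2 cpm.

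YUC5 (AT5G43890, chr5:17648576-17650375, minus strand, 1 exon), also tied to low R/FR, was not called against 21WL and was called lower with warmth added to low R/FR. At 1 h the replicates held 2.39 and 2.49 cpm in 21FR, with 30FR at 1.37 and 0.929 cpm, beside 1.68 and 1.53 cpm in 21WL and 0.972 and 1.15 cpm in 30WL. At 6 h 21FR held 2.61 and 1.77 cpm and 30FR 0.936 and 0.917 cpm, beside 1.23 and 2.42 cpm in 21WL and 0.989 and 1.12 cpm in 30WL. At both times the pairs of 21FR lay above those of 30FR and 30WL. In 30FR against 21FR, YUC5 was called lower at 1 h (log2FC −1.10, SE 0.345, FDR 0.0206) and 6 h (log2FC −1.22, SE 0.328, FDR 0.0113), 1 of 9 genes at each time where 2.37% and 1.49% of all genes were called lower. At 3 h (4.96% of all genes called in either direction) and 24 h (2.90%) none of the 9 was called by edgeR's quasi-likelihood test, with 3 and 1 at an unadjusted p under 0.05. YUC5 had a log2FC of −0.27 (SE 0.324) at 3 h and −0.97 (SE 0.342, FDR 0.0457) at 24 h.

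The counts behind YUC5 were low, 8 to 50 per library. The call at 1 h ended without replicate 1 (−1.13) or 2 (−1.07) of 21FR or replicate 2 of 30FR (−0.83). That at 6 h ended without replicate 1 of 21FR (−0.93), without replicate 1 (−1.23) or 2 (−1.20) of 30FR, and with the time point fitted alone. Over the mean of the 4 time points YUC5 was 0.89 lower on the log2 scale in 30FR than in 21FR (log2FC −0.89, SE 0.168, FDR 0.000135), and 0.56 lower than in 21WL (log2FC −0.56, SE 0.176, FDR 0.00986). Against 21WL at 6 h YUC5 in 30FR had a log2FC of −0.96 (FDR 0.0449), with −1.42 and a call without replicate 1 of 21WL and −0.42 (FDR 0.537) without replicate 2. In 21FR against 21WL its mean difference was 0.33 (SE 0.166, FDR 0.414) and in 30WL against 21WL −0.38 (SE 0.184, FDR 0.0986).

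YUC6 (AT5G25620, chr5:8934941-8938768, minus strand, 4 exons) passed the FDR for a higher level at 24 h than at 1 h in 3 of the 4 conditions, and was not called against 21WL. At 1 h the replicates held 5.41 and 5.34 cpm in 21WL, 3.26 and 4.48 cpm in 21FR, 3.82 and 4.14 cpm in 30WL, and 4.19 and 4.03 cpm in 30FR. At 24 h they held 7.29 and 8.14 cpm in 21WL, 6.78 and 6.47 cpm in 21FR, 7.07 and 7.53 cpm in 30WL, and 7.71 and 7.88 cpm in 30FR. The libraries of the 2 times did not overlap in any condition, which is a description of 2 libraries a group and not a test. The log2FC of 24 h over 1 h was 0.77 in 21FR (FDR 0.00553), 0.87 in 30WL (FDR 0.000677), 0.92 in 30FR (SE 0.162, FDR 0.000125) and 0.52 in 21WL (FDR 0.0653), all under the fold required. Without replicate 2 of 21FR at 1 h the log2FC in 21FR was 1.02 and was called, and without replicate 1 it was 0.56 (FDR 0.114). At 1 h YUC6 had log2FC of −0.47 in 21FR, −0.43 in 30WL and −0.39 in 30FR against 21WL, with FDR of 0.885, 0.0710 and 0.0846.

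YUC4 (AT5G11320, chr5:3611247-3613640, minus strand) had its highest mean of each condition at 24 h. Its group means at 24 h were 2.74 ± 0.249 cpm in 21WL, 2.36 ± 0.00732 cpm in 21FR, 1.70 ± 0.639 cpm in 30WL and 1.82 ± 0.0811 cpm in 30FR, against 1.12 to 1.49 cpm at 1 h. None of these rises passed the FDR, the log2FC ranging from 0.50 in 30FR to 0.88 in 21WL (FDR 0.0776). At 6 h YUC4 was at 0.713 and 0.917 cpm in 30FR, with 21WL at 0.988 and 1.69 cpm (log2FC −0.69, FDR 0.118), and it was called lower without replicate 1 of 21WL (−1.08) and had −0.28 (FDR 0.716) without replicate 2. YUC3 (AT1G04610, chr1:1279351-1281618, plus strand), the YUC gene with the highest level per kb in 21WL, ranged from 3.05 to 8.28 cpm over the 32 libraries and was not called in any comparison. In 21WL it was at 6.83 and 7.30 cpm at 1 h and 5.06 and 3.05 cpm at 24 h (log2FC −0.80, SE 0.225, FDR 0.0406), and it was called lower without replicate 1 of 21WL at 24 h (−1.21). With replicate 2 of that group left out it had −0.49 (FDR 0.329), and without replicate 1 or 2 at 1 h the FDR was 0.124 or 0.174.

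YUC7 and YUC1 were close to the limit of these libraries. YUC7 (AT2G33230, chr2:14080319-14081971, minus strand) had 2 to 30 counts per library and overlaps AT2G33220 on the other strand. The counting was strand-specific, and whether reads of AT2G33220 still entered these counts was not tested. In 21FR at 1 h the replicates of YUC7 had 30 and 14 counts (2.17 and 0.895 cpm), and in 21FR at 24 h 4 and 13 counts (0.224 and 0.539 cpm). In 30FR the counts were 10 and 20 at 1 h (0.687 and 1.03 cpm) and 8 and 4 at 24 h (0.278 and 0.168 cpm). It exceeded 1 cpm only in replicate 1 of 21FR at 1 h, replicate 2 of 30FR at 1 h and replicate 2 of 21FR at 3 h (1.08 cpm). YUC7 thus passed the filter only through far-red libraries, including the 1 h groups of the next 2 calls, which are not independent of the filter. YUC7 was called lower at 24 h than at 1 h in 21FR (log2FC −1.91, SE 0.521, FDR 0.021) and in 30FR (log2FC −1.92, SE 0.581, FDR 0.0107). Without replicate 1 of 21FR at 1 h the first was −1.16, and −1.48 without replicate 1 of 21FR at 24 h. The second was −1.57 without replicate 2 of 30FR at 1 h and −1.63 without replicate 2 at 24 h, and these 4 values were not called. In 21WL and 30WL the log2FC were −0.90 and −0.51 with SE of 0.64 and 0.70.

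YUC1 (AT4G32540, chr4:15700829-15703000, plus strand), known for its part in embryo and leaf development, had 3 to 21 counts in every library, or 0.153 to 0.882 cpm. A count of 0 in these libraries would allow up to 3 counts, so that YUC1 stood at or just above that limit in some of them. Its highest group mean was 0.778 ± 0.146 cpm in 21WL at 24 h (10 and 13 counts) and its lowest 0.259 ± 0.151 cpm in 30WL at 3 h (5 and 3 counts). With the filter on expression left out, no comparison of YUC1 was called, and the smallest unadjusted p was 0.104, for 24 h over 1 h in 21WL. No change of YUC1 was detected at these counts. Of the 50-base stretches within single exons, 100% after rounding occurred once in the genome for each of the 10 genes. Reads of such length that match without error within an exon were thus hardly shared between the family members. Stretches across exon junctions were not checked.

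Summed over YUC1 to YUC9, the level of the YUC step was 25.5 to 28.4 cpm in the 8 libraries of 21WL and 22.9 to 28.2 cpm in those of 30WL. In 21FR the sum was 34.3 to 44.3 cpm at 1, 3 and 6 h, coming to 27.1 and 29.6 cpm at 24 h. In 30FR it was 41.3 and 42.6 cpm at 1 h, 51.5 and 50.05 cpm at 3 h, 45.6 and 30.7 cpm at 6 h, and 30.8 and 27.5 cpm at 24 h. YUC8 and YUC9 together made up 17.2 to 26.98% of the sum in 21WL and 51.3 and 54.0% in 30FR at 3 h. This sum counts transcripts and not enzyme activity.

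**Figure D5:**
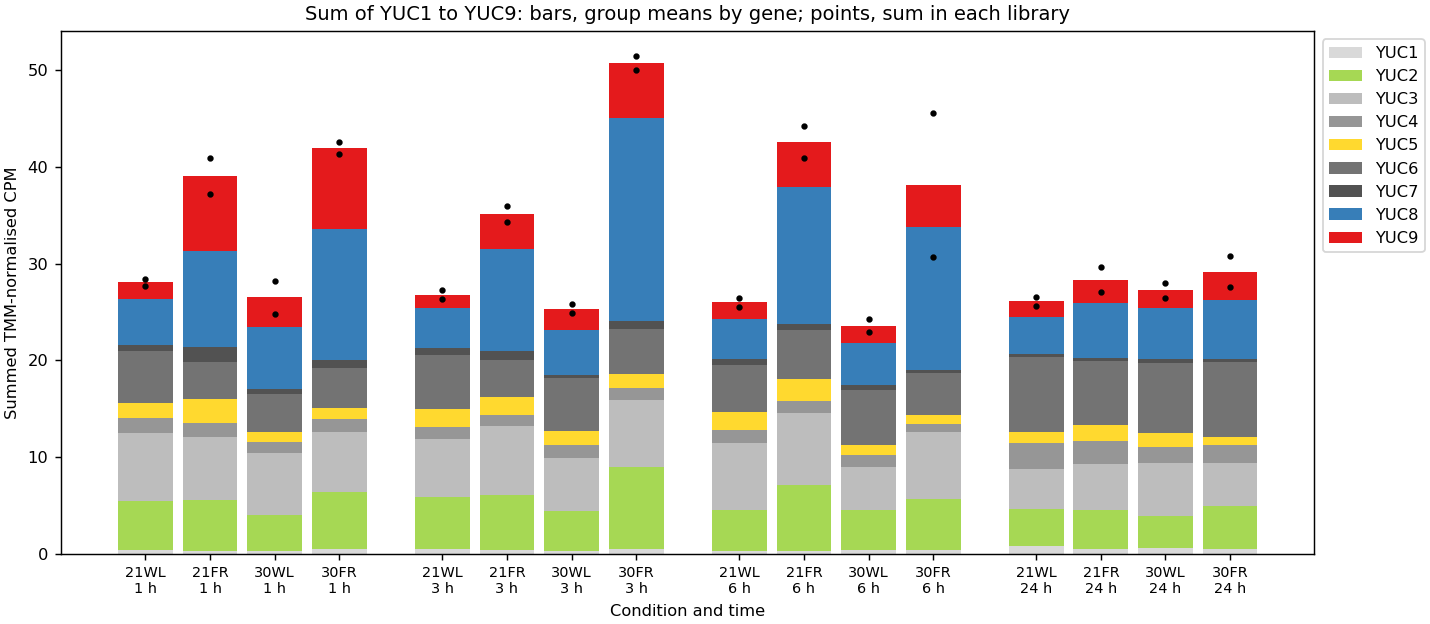
Summed cpm of YUC1 to YUC9 (vertical axis) for the 16 groups, with bars stacked from the group means of each gene and 1 point for the sum in each library. The bars of 21FR and 30FR at 1, 3 and 6 h stand above those of 21WL and 30WL, mainly by YUC8 and YUC9, and the 2 libraries of 30FR at 6 h lie at 45.6 and 30.7 cpm.

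Over the 16 group means of log2(cpm + 0.5), YUC8 and YUC9 were the most alike pair of the 9 genes kept (Pearson r 0.883), followed by YUC8 and YUC2 (0.78), YUC4 and YUC6 (0.732) and YUC5 and YUC7 (0.695). Among all other genes kept, the 3 most like YUC8 were DFL1 (0.973), AT5G62280 (0.956) and AT5G06930 (0.952), and the 3 most like YUC9 were AT5G66580 (0.983), AT3G50340 (0.953) and IAA2 (0.949). DFL1 encodes an enzyme of the GH3 family that joins auxin to amino acids, and IAA2 a repressor of the Aux/IAA family that is itself induced by auxin. DFL1 ranged from 39.7 to 101 cpm and IAA2 from 35.2 to 156 cpm in the group means. These correlations are descriptions over 16 groups that share time points and conditions.

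Among other genes of the route, TAR1 and YUC11 had 0 counts in all 32 libraries and YUC10 at most 2, where a count of 0 allows up to 3. CYP71A13, of another route from tryptophan, had at most 1 count. TAR2, an aminotransferase related to TAA1, was not called against 21WL. From 1 to 24 h it was called lower in 30FR, from 12.9 ± 1.41 to 5.88 ± 0.108 cpm (log2FC −1.14, SE 0.236, FDR 0.000656), where 4.57% of all genes were. The mean of TAR2 was also lower at 24 h in 21WL (13.9 to 9.61 cpm), 21FR (12.2 to 8.38 cpm) and 30WL (11.007 to 9.17 cpm), without a call. The difference between its fall in 30FR and that in 21WL was not called. VAS1, an aminotransferase that returns indole-3-pyruvate to tryptophan, was not called in any comparison. Of the 11 genes of tryptophan synthesis, 1 was called against 21WL. This was PAI2 in 30WL at 1 h, at 1.25 ± 0.00218 cpm against 2.78 ± 0.105 cpm in 21WL (log2FC −1.15, SE 0.307, FDR 0.00912), where 1.72% of all genes were called lower. Its near-identical copy PAI1 makes the split of reads between them uncertain.

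Of 7 genes of other routes from tryptophan to auxin or its precursors, 6 passed the filter and 1, NIT1, was called against 21WL, in 21FR at 3 and 6 h, where 0.174% and 0.328% of all genes were called higher. NIT1 encodes a nitrilase that can form auxin from indole-3-acetonitrile, and its close copies NIT2 and NIT3 could share reads with it. At 3 h its replicates held 770 and 598 cpm in 21WL, 1458 and 1464 cpm in 21FR, 540.2 and 546 cpm in 30WL, and 1331 and 984 cpm in 30FR. Both far-red pairs lay above both white light pairs. NIT1 was called higher in 21FR at 3 h (log2FC 1.09, SE 0.158, FDR 0.000856) and 6 h (log2FC 1.08, FDR 0.000549), and in 30FR over 30WL at 3 h (log2FC 1.09, FDR 0.000389). NIT1 was not called in 30FR over 21WL, where it had log2FC of 0.72 at 1 h, 0.76 at 3 h, 0.95 at 6 h and 0.51 at 24 h.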

How the data were processed

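Poly(A) RNA was sequenced with a strand-specific kit from 32 libraries of whole seedlings (4 conditions, 4 time points, 2 replicates). Per the submitters' notes the authors used CASAVA 1.8.2, STAR 2.5.4, HTSeq 0.6.0 and edgeR 3.16.5 with the TAIR10 genome, and they deposited counts per gene without normalization. The authors also deposited a normalized signal, which they call CPM, in which YUC1 and YUC7 were not listed. It was used here only beside the CPM computed from the counts, and 122 of 128 group means differed between both by less than 1 SD of the replicates.

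The 5 summary lines of the count table entered neither library sizes nor tests. Reads outside genes were 2.47 to 3.58% of a library's entries, ambiguous reads 0.262 to 0.529% and multiply aligned entries 10.5 to 50.4%. The last share was highest in the 2 libraries of 30WL at 6 h (50.4 and 38.8%). The filter was a level above 1 CPM in 2 or more libraries, which 20145 of 25886 genes with a count passed. After TMM scaling, a single model over all 16 groups was fitted (edgeR 4.0.16, R 4.3.3), so that all groups share 1 estimate of the spread, with a common biological coefficient of variation of 0.115. The quasi-likelihood F test was applied to each contrast, with Benjamini-Hochberg adjustment over the genes that passed. The interaction was (30FR over 30WL) minus (21FR over 21WL). To obtain the SE, the log2FC fitted with no prior count was divided by the square root of F. The fold is 2 to the power of the log2FC, and a pseudocount of 0.5 was used for log2 CPM. Positions, exons and upstream sequences came from RefSeq's TAIR10.1, where all 10 identifiers matched. Python 3.11.15 with numpy 2.4.6, pandas 2.3.3 and matplotlib 3.10.9 served for tables and figures, and the test procedure was tested on simulated data.

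The genes named are the 10 of the set, the 3 genes most alike to each of those called against 21WL, and, from lists of tryptophan synthesis and of other auxin routes, those called against 21WL or with at most 3 counts in every library. TAR2 and VAS1 were named after their values were seen. The set and these lists were chosen with earlier results of these data known. The alternatives tried were DESeq2 1.42.0, its size factors within edgeR, the likelihood ratio test, no filter on expression, a block for the replicate number, a separate fit of every time point, the FDR alone, a pseudocount of 2, the authors' CPM and each library left out in turn, where the remaining library of a group was assumed to vary like the other groups. The labels do not say that a replicate number marks a shared batch, and p-values measure the spread between these samples. Over the 120 pairs of groups, the correlation of same-numbered libraries' deviations from their group means ran from −0.516 to 0.612 (median 0.0141, 37 over 0.1), so the replicates were treated as unpaired. No pair of replicates agreed within sampling noise.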

Additional observations from a re-analysis of the deposited data

Results flagged for a closer look

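The response of YUC9 to 30FR was smaller at 24 h than at 1 h, by a test of the difference itself. Its log2FC against 21WL was 2.32 at 1 h and 0.81 at 24 h, and their difference was -1.51 (SE 0.386, FDR 0.0213 in edgeR's quasi-likelihood test). The same difference in 21FR, given above, was of similar size and was not called, so it was not particular to 30FR. Both replicates of 30FR were lower at 24 h (3.51 and 2.26 cpm) than at 1 h (9.14 and 7.64 cpm). Leaving out 1 library moved the value between -1.87 and -1.24, with FDR from 0.0149 to 0.107. The sum of the green tissue markers was also lower in 30FR at 24 h (19500 and 18560 cpm) than at 1 h (40170 and 35350 cpm). This comparison was added after the data were seen, and its cause was not tested.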

How the results depend on the processing

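The tests compare 2 libraries a group, and several calls ended when 1 library was left out, which leaves 1 library in its group. In some of these the log2FC hardly moved. The number of calls among the 9 tested genes over the 4 time points or conditions moved by over 1.5 times in some of the settings below. With 1 library left out, the counts for 30FR over 21WL, 24 h over 1 h, the interaction and the mean over the time points stayed within 1.5 times. With each time point fitted alone, the calls of 21FR over 21WL went from 5 to 2 and those of 30FR over 21FR from 2 to 1, with fewer libraries to estimate the spread. With the FDR alone, they went from 0 to 1 for 30WL over 21WL, from 2 to 5 for 30FR over 21FR, from 5 to 9 for 24 h over 1 h and from 6 to 16 for the mean over the 4 time points. Leaving out 1 library gave 3 to 5 calls for 21FR over 21WL, 0 to 1 for 30WL over 21WL, 6 to 8 for 30FR over 21WL, 1 to 3 for 30FR over 21FR, 3 to 7 for 30FR over 30WL, 4 to 6 for 24 h over 1 h, 0 to 1 for the response at 24 h over that at 1 h, 0 for the interaction and 6 for the mean over the time points. With 30FR over 30WL, 6 calls became 7 with the replicate number as a block, since YUC8 at 1 h was then called (log2FC 1.06, FDR 0.0307), and the block changed no other count. The likelihood ratio test, DESeq2, DESeq2's size factors and the lack of a filter left each count within 1.5 times. The log2FC of YUC2 in 30FR over 21FR at 6 h turned from -0.36 to 0.11 without replicate 2 of 30FR and was -1.02 without replicate 1, and the cause was not tested. With 1 library left out, 35 of 104 values of the called comparisons of single groups or times were no longer called, and 0 of 96 for the 6 called means over the time points. At 2 to 50 counts a library, changes of YUC1, YUC5 and YUC7 are limited by depth.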

Other observations

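CYP79B2 and CYP79B3, enzymes that turn tryptophan into indole-3-acetaldoxime for indole glucosinolates and, in part, auxin, had lower log2FC in 30FR against 21WL at 24 h than at 1 h. The difference between the times was -1.38 (SE 0.30, FDR 0.00842) and -1.21 (SE 0.207, FDR 0.00128) in edgeR's quasi-likelihood test. These were 2 of the 6 tested genes of other routes, where 1.29% of all genes were called lower. At 1 h in 30FR against 21WL CYP79B2 had a log2FC of 0.63 and CYP79B3 of 0.47, and at 24 h -0.75 and -0.74, none of them called. These genes were named after their values were seen.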
